A study of Homo sapiens with 12 samples.

Results

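The genes described here are 10 genes for secreted matrix glycoproteins and proteoglycans that fibroblasts are known for. With earlier results of these data known, they were chosen by symbol from the 58174 gene identifiers of each expression table. They are the adhesive glycoprotein gene FN1 (fibronectin), the matricellular glycoprotein genes TNC (tenascin-C), SPARC (osteonectin) and POSTN (periostin), the microfibril gene FBN1 (fibrillin-1), the small leucine-rich proteoglycan genes LUM (lumican), DCN (decorin) and BGN (biglycan), the hyaluronan-binding proteoglycan gene VCAN (versican), and FAP, a membrane-anchored serine protease. Expression was measured in U87 (U-87 MG) and U118 (U-118 MG), cell lines derived long ago from human glioblastomas. Temozolomide (TMZ) is the alkylating drug given to patients with this tumour. In each line, mRNA-seq was done on control cells and on aggregation cells, which arose from cells exposed continuously to TMZ at 50 µM. By the study's account, growth was held back for weeks during and after treatment before a subset of cells divided again and formed aggregations. Whether the drug was still present when RNA was taken is not given in the sources used here. Each of the 4 groups had 3 libraries, 12 in all. In the labels, control cells are named sensitive, and aggregation cells resistant. By the study's methods, both lines were sorted for cells lacking CD133 and CD15 before use and were kept in medium with serum and BMP2, so all 4 groups share these steps. The aggregation cells came from the few cells that survived TMZ, which limits them as a model of the whole treated culture. The labels do not say whether the 3 libraries of a group came from separate cultures, so p-values measure the spread between these libraries, which may be technical.

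Fibronectin is assembled by integrins into fibrils on which other matrix proteins settle, and fibrillin-1 forms the microfibrils that carry elastin and latent TGF-beta. Tenascin-C, SPARC and periostin are matricellular proteins, which change how cells hold to the matrix more than they build it. Lumican, decorin and biglycan bind collagen fibrils and set their spacing, whereas versican binds hyaluronan and makes the loose matrix of normal brain and of glioma. FAP cleaves peptides after proline and is best known from activated fibroblasts.

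All values are in TPM, a transcript level corrected for length and expressed relative to the library's total, so levels of different genes can be compared within a library. TPM keeps no read counts, so depth is unknown and an entry listed at 0 has no detection limit. From 13270 to 15290 genes reached 1 TPM in a library. The share of mitochondrially encoded genes was 12.9% to 16.9% in U87 control and 22.2% to 23.7% in U87 aggregation libraries, and 7.42% to 19.7% in U118 control and 13.2% to 29.9% in U118 aggregation libraries. Across genes, which are not independent replicates, Spearman's rho was 0.951 to 0.984 between libraries of 1 group. The U118 aggregation libraries stood closer to the U87 libraries (rho 0.882 to 0.897) than to the U118 control libraries (rho 0.801 to 0.834), and the part of this in the U118 results was not tested. The cell line of these libraries was taken from the labels, and whether they derive from U118 cells was not tested, so each U118 change and each difference between the lines rests on that label. U118 aggregation replicate 1 stood apart from the rest of its group, with a mitochondrial share of 13.2% against 26.1% and 29.9%. For those of the 10 genes tested in U118, values without it are given below where they move a ratio or a level by over 1.5 times or change a call. Among the other genes this is given for SRGN alone, although more of them leaned on this replicate, such as TGFBI (1061 TPM against 343 and 366).

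The promoters of FN1, POSTN and BGN are shown because these genes had the highest ratios of aggregation to control TPM in U87 among the genes for which a ratio could be given. Each is the 250 bases before the RefSeq start of the gene in GRCh38.p14, read 5′ to 3′ on the strand of the gene. Capitals mark matches, on either strand, to a TATA-type motif (TATAAA or ATATAA, which can overlap each other), the CCAAT box (CCAAT), the CRE (TGACGTCA), the AP-1 site (TGANTCA) and the GC box (GGGCGG). The windows are chr2:215436069-215436318 on the minus strand for FN1, chr13:37598769-37599018 on the minus strand for POSTN and chrX:153494730-153494979 on the plus strand for BGN.
FN1: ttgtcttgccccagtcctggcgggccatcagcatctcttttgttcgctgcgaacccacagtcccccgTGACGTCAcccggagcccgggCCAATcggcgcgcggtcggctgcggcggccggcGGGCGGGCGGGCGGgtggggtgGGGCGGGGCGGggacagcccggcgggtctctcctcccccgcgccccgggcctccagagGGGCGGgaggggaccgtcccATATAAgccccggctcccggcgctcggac
POSTN: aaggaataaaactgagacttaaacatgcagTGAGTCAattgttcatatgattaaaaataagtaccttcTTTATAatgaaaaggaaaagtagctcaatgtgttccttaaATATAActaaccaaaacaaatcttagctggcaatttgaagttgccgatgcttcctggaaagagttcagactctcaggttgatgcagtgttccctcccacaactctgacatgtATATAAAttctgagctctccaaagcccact
BGN: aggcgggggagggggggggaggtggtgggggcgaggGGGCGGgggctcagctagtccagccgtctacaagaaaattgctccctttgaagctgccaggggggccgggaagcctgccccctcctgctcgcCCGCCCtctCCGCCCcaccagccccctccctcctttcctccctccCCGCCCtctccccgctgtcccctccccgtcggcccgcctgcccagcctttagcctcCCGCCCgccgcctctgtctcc

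The FN1 window holds a CRE at -183, a CCAAT box at -162, 6 GC boxes between -129 and -49, and ATATAA at -29, counting the first base of each match from the RefSeq start. The POSTN window holds TATAAA at -182 and -29, ATATAA at -142 and -30, the last overlapping the TATAAA at -29, and an AP-1 match at -220. In BGN the only matches were 5 GC boxes. The 3 windows thus differ in base composition, with 76.4% G and C for FN1, 74.0% for BGN and 36.4% for POSTN, against a median of 58% over all promoters. RefSeq promoters were matched for 7 of the 10 genes, the others being TNC, SPARC, FBN1 and VCAN, and FAP, LUM and DCN were not matched. ATATAA was in 4 of the 7 (FN1, TNC, POSTN and VCAN) and in 7.63% of 35116 promoters of the same length, and the GC box in 4 of the 7 (FN1, TNC, BGN and VCAN) and in 42.6% of all. Among all promoters TATAAA was in 10.7%, CCAAT in 32.0%, the CRE in 1.65% and the AP-1 site in 6.57%. The TEAD motif CATTCC, in 11.9% of all promoters, was found in SPARC and FBN1, and the HIF core ACGTG, in 18.5% of all, in none of the 7. These matches describe letters in the windows and say nothing of binding. GENCODE release 29 places the outermost start of FN1, POSTN and BGN inside the windows shown.

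Whether the matrix genes changed with the aggregation state was asked separately in U87 and U118, by limma fitted to log2(TPM + 1). A gene was tested where 3 or more of the 6 libraries of the line reached 1 TPM. It was called when its p, adjusted over all genes tested by the Benjamini-Hochberg method, was under 0.05 and its log2 fold change was 1 or more in size. Fold changes are aggregation over control and are given with their standard error (SE). They understate the change of genes of low TPM. The change in U118 minus the change in U87 was tested as an interaction over the 12 libraries. Over all genes tested, the median log2 fold change was -0.245 for U87 and -0.522 for U118. For 3 libraries against 3, the smallest two-sided p of an exact permutation test is 0.1, so that test is not used.

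Most of the matrix genes that could be tested were higher in aggregation cells of U87 and lower in those of U118. In U87, 7 of the 9 genes tested were called higher (FN1, SPARC, POSTN, FBN1, LUM, BGN and FAP) and 0 lower, where 3.03% of all 13845 genes tested were called higher and 7.79% lower. Their median log2 fold change was 1.75. In U118, 8 of the 9 genes tested were called lower (FN1, TNC, POSTN, FBN1, LUM, DCN, VCAN and FAP) and 0 higher, where 26.6% of 15527 genes were called lower and 8.64% higher. Their median was -2.74, and all 8 calls were kept without U118 aggregation replicate 1. POSTN and BGN passed the filter in U87 only through the aggregation libraries, and POSTN passed it in U118 only through the control libraries, as did DCN but for 1 aggregation library just above 1 TPM. A gene that passed in this way had to differ, so the counts and medians that include them describe the set and are no support for it. DCN in U87 and BGN in U118 were below the filter and were not tested. In these bulk libraries, fewer cells with a transcript and less transcript per cell cannot be told apart.

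**Figure D1:**
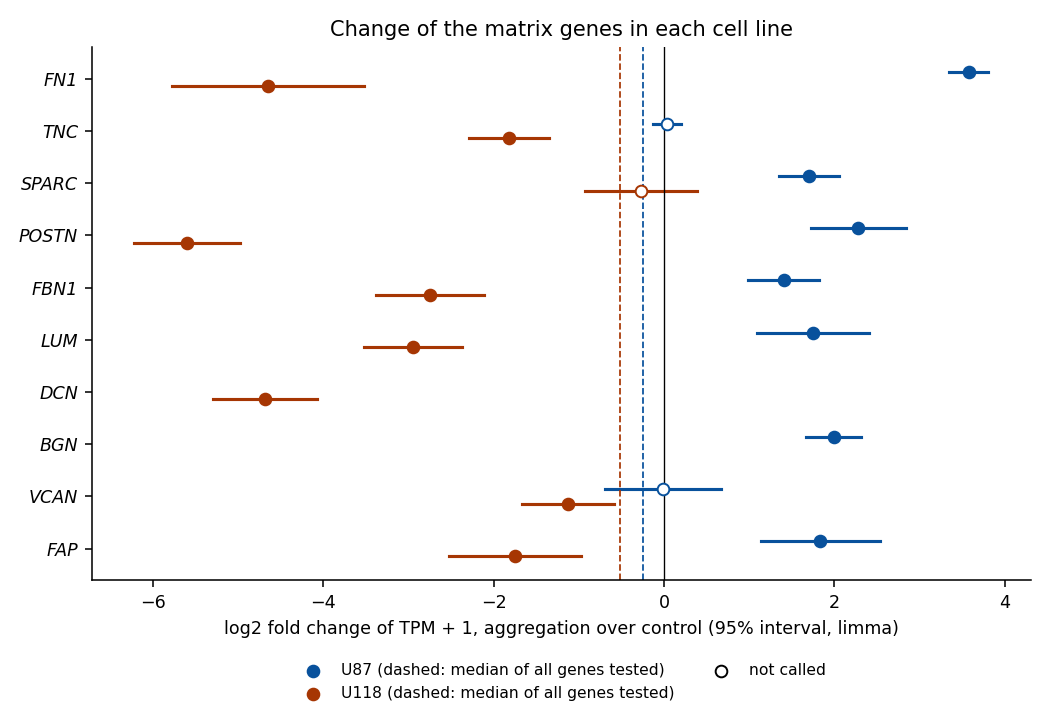
Log2 fold change of TPM + 1, aggregation over control, of each matrix gene in U87 (blue) and U118 (red), with 95% intervals from limma. Filled points were called, open points were not, and dashed lines mark the median of all genes tested (-0.245 in U87 and -0.522 in U118). Filled points lie to the right for U87 and to the left for U118, and the open points are TNC and VCAN in U87 and SPARC in U118.

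FN1 (ENSG00000115414, GRCh38 chr2:215360440-215436172, minus strand) changed by the most TPM of the 10 genes in each line. In the U87 control libraries FN1 was at 74.0, 68.2 and 77.9 TPM, and in the aggregation libraries at 973, 785 and 909. Every aggregation library was above every control library, and the ratio of the means (73.4 ± 4.87 and 889 ± 95.4, SD, n = 3) was 12.1. On the log2 scale FN1 rose by 3.58 (SE 0.10, limma adjusted p = 8.59e-06). Among all genes of a library, it moved from rank 1993 to 2371 in the controls to rank 117 to 135 in the aggregation cells.

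In U118 the control cells already had FN1 among their most abundant transcripts, at rank 24 to 32 of the library. Its control levels were 2754, 3309 and 3879 TPM, and the aggregation levels were 334, 78.4 and 83.8. All 3 aggregation libraries were below the controls, with replicate 1 above the other two of its group. The mean fell from 3314 ± 562 to 165.3 ± 146 TPM (SD, n = 3), a control level 20.1 times that of the aggregation cells and a log2 fold change of -4.65 (SE 0.50, limma adjusted p = 9.28e-05). Without replicate 1 the aggregation mean was 81.1 TPM, the ratio 40.9 and the log2 fold change -5.32. The U118 aggregation cells thus ended with an FN1 level below that of the U87 aggregation cells, the reverse of the order in the controls; the tables of the lines were deposited separately and these levels were not tested against each other.

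Among the matricellular genes, TNC, SPARC and POSTN each followed a different pattern. TNC (chr9:115019578-115118257, minus strand), an anti-adhesive hexameric glycoprotein, was at 546, 547 and 517 TPM in U87 control libraries and at 569, 506 and 575 in aggregation libraries. These groups overlapped, and the log2 fold change was 0.03 (95% interval -0.13 to 0.20, limma adjusted p = 0.735). In U118, TNC was at 532, 654 and 579 TPM in control and at 190, 155 and 153 in aggregation libraries. There the groups did not overlap, and TNC fell by 1.82 on the log2 scale (SE 0.21, limma adjusted p = 0.000128), a control mean 3.54 times the aggregation mean. Its mean was 536.5 ± 17.0 TPM in U87 control, 550.0 ± 38.6 in U87 aggregation, 588 ± 61.3 in U118 control and 166 ± 21.0 in U118 aggregation cells (SD, n = 3).

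SPARC (chr5:151661096-151687165, minus strand), a collagen-binding glycoprotein, was at 190.3, 213 and 143 TPM in U87 control libraries and at 536, 607 and 619 in aggregation libraries. Its groups stood apart in U87, with a ratio of 3.23 and a log2 fold change of 1.70 (SE 0.15, limma adjusted p = 0.000282). In U118 the values overlapped, at 352, 321 and 259.8 TPM in control and 393, 195 and 216 in aggregation libraries. The log2 fold change there was -0.27 (95% interval -0.93 to 0.39, limma adjusted p = 0.452). Leaving out aggregation replicate 1, which held the highest SPARC level of the line, gave -0.58 (limma adjusted p = 0.0259), past the p threshold and short of the fold threshold, and with the libraries scaled by their median ratio the value was 0.30. The direction of SPARC in U118 was therefore not fixed by these libraries.

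POSTN (chr13:37562583-37598844, minus strand), a fibrillogenesis protein of the fasciclin family, was near 0 in U87 control libraries, at 0.147, 0.917 and 0.114 TPM, and reached 5.98, 4.99 and 5.70 TPM in aggregation libraries. All aggregation libraries were above all controls, and the log2 fold change was 2.28 (SE 0.23, limma adjusted p = 0.000551). In U118 the order was turned: POSTN was at 52.4, 35.5 and 65.9 TPM in control and was listed at 0, 0.155 and 0 in aggregation libraries. No ratio is given against a group with entries at 0, and the fitted log2 fold change of -5.59 (SE 0.28, limma adjusted p = 1.11e-06) depends on the pseudocount of 1. With a pseudocount of 0.1 it was -8.51.

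**Figure D2:**
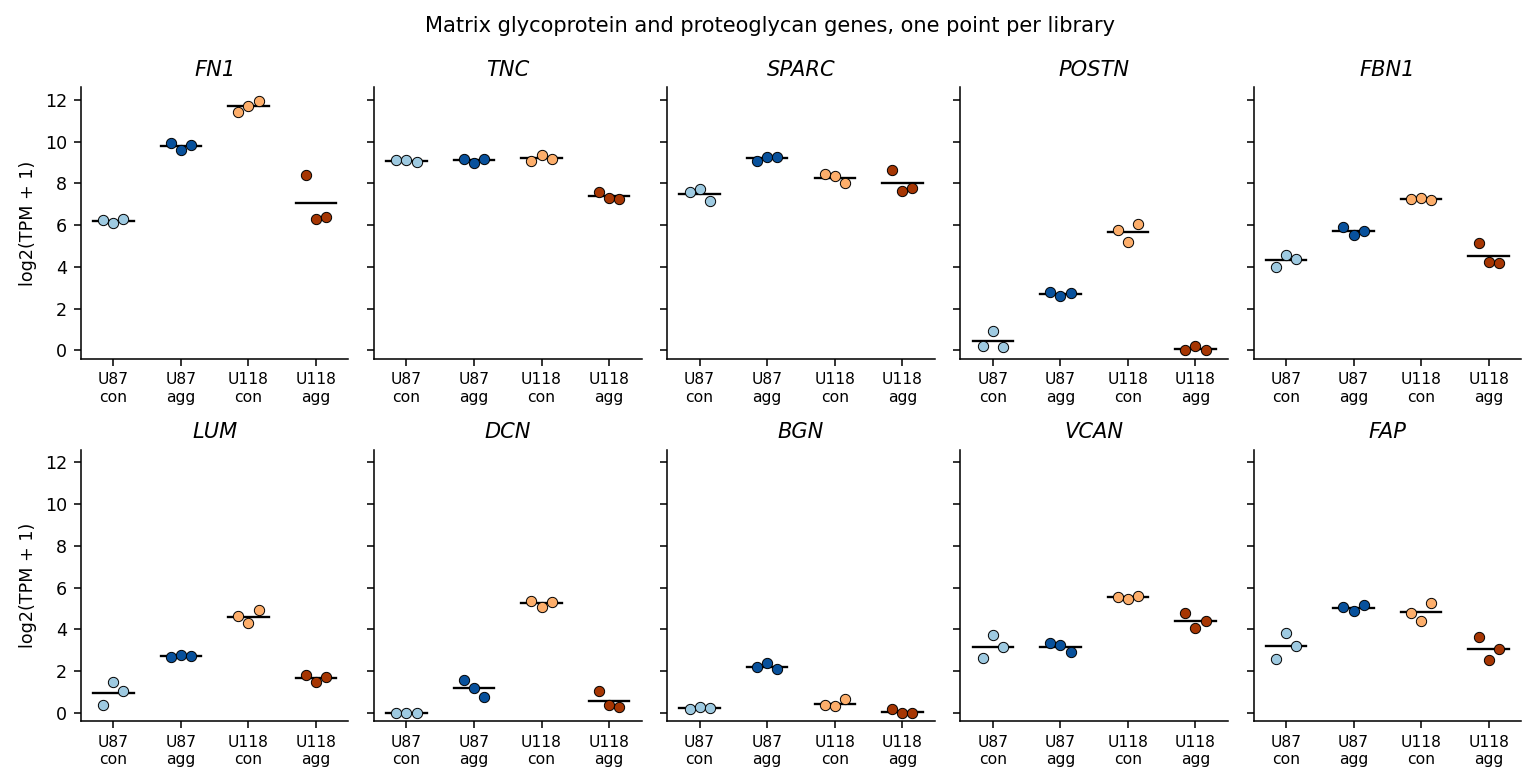
Level of each matrix gene as log2(TPM + 1) in the 12 libraries, with control (con) and aggregation (agg) groups of U87 (blues) and U118 (orange and red), points for libraries and bars for group means. FN1, POSTN, FBN1, LUM, DCN and FAP were higher in every aggregation library than in the controls in U87 and lower in U118, TNC and VCAN were lower in U118 with overlapping groups in U87, SPARC was higher in U87 with overlapping groups in U118, and BGN was under 1 TPM in all libraries but those of U87 aggregation.

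FBN1 (chr15:48408306-48645849, minus strand) followed FN1 in direction with smaller changes. Its U87 levels were 14.7, 22.9 and 19.98 TPM in control and 58.2, 45.5 and 51.7 in aggregation libraries. The groups stood apart, with a ratio of 2.70 and a log2 fold change of 1.403 (SE 0.18, limma adjusted p = 0.00121). In U118, FBN1 was at 152, 154 and 147 TPM in control and at 34.1, 17.5 and 16.9 in aggregation libraries. It fell by 2.74 on the log2 scale (SE 0.28, limma adjusted p = 6.69e-05), with a control mean 6.60 times the aggregation mean.

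The small leucine-rich proteoglycan genes were of low level in all groups but U118 control. LUM (chr12:91102629-91111831, minus strand), which binds collagen fibrils through its leucine-rich core, was at 0.300, 1.82 and 1.07 TPM in U87 control and 5.46, 5.77 and 5.55 in U87 aggregation libraries. In U118 it was at 23.6, 18.5 and 29.8 TPM in control and 2.48, 1.83 and 2.24 in aggregation libraries. Neither line had overlapping groups. LUM rose in U87 by 1.75 on the log2 scale (SE 0.28, limma adjusted p = 0.00318) and fell in U118 by 2.95 (SE 0.25, limma adjusted p = 2.28e-05), where the control mean was 10.98 times the aggregation mean.

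DCN (chr12:91140484-91183123, minus strand), a collagen-binding proteoglycan that also binds TGF-beta, was listed at 0 in the 3 U87 control libraries. In U87 aggregation libraries it was at 1.94, 1.28 and 0.703 TPM, all above the controls but too low for the filter. It was therefore not tested in the main U87 fit, and no ratio is given. DCN in U118 was at 39.6, 32.9 and 38.8 TPM in control libraries and 1.06, 0.282 and 0.224 in aggregation libraries. Of the ratios that could be given, this was the highest of the 10 genes, with a control mean 71.0 times that of the aggregation cells and a log2 fold change of -4.68 (SE 0.27, limma adjusted p = 2.22e-06). Without aggregation replicate 1 the aggregation mean was 0.253 TPM, the ratio 147 and the log2 fold change -4.92.

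BGN (chrX:153494939-153509554, plus strand), the closest relative of decorin, was the exception among the 3 in that U118 control cells did not hold it at a high level. It was at 0.130, 0.206 and 0.166 TPM in U87 control and 3.53, 4.21 and 3.25 in U87 aggregation libraries. The U87 groups stood apart, with a ratio of 21.9 and a log2 fold change of 1.99 (SE 0.14, limma adjusted p = 0.000129). In U118 all 6 libraries were below 1 TPM, at 0.280, 0.248 and 0.563 in control and at 0.142, 0 and 0 in aggregation libraries, and BGN was not tested there. Summed over LUM, DCN and BGN, the level went from 0.430 to 2.02 TPM in U87 control to 9.50 to 11.3 in U87 aggregation, and from 51.6 to 69.2 in U118 control to 2.11 to 3.69 in U118 aggregation libraries.

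VCAN (chr5:83471465-83582303, plus strand) had the smallest fold changes of the proteoglycan genes among the 10. Its U87 levels overlapped, at 5.23, 12.2 and 7.80 TPM in control and 9.18, 8.42 and 6.46 in aggregation libraries, and the log2 fold change was -0.01 (95% interval -0.69 to 0.67, limma adjusted p = 0.986). In U118 it was at 46.5, 42.3 and 47.8 TPM in control and 26.5, 15.5 and 20.2 in aggregation libraries. The U118 groups did not overlap, and VCAN fell by 1.13 on the log2 scale (SE 0.24, limma adjusted p = 0.00444). That fall was close to the fold threshold and was no longer called with median-ratio scaling (-0.57), with TPM recomputed without mitochondrial genes (-0.94) or without aggregation replicate 2 (-0.94).

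FAP (chr2:162170684-162245151, minus strand) was at 5.01, 13.1 and 8.25 TPM in U87 control and 32.3, 28.9 and 34.7 in U87 aggregation libraries. In U118 it was at 26.3, 20.1 and 38.1 TPM in control and 11.5, 4.72 and 7.22 in aggregation libraries. Both lines had separate groups, with almost the same ratio in opposite directions, 3.63 for aggregation over control in U87 and 3.61 for control over aggregation in U118. The log2 fold changes were 1.83 (SE 0.29, limma adjusted p = 0.00331) and -1.75 (SE 0.34, limma adjusted p = 0.00285).

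The change differed between the lines for all 10 genes by the interaction test, each lower in U118. In this test POSTN passed the filter only through the U87 aggregation and U118 control libraries, and BGN only through the U87 aggregation libraries. DCN passed through the same groups as POSTN, but for a U118 aggregation library at 1.06 TPM. Genes that passed through their high groups had to differ, so the count of 10 describes the set and is no support for it. Of 16382 genes tested, 30.5% differed between the lines, 18.5% lower and 12% higher in U118. The difference (U118 minus U87, log2 scale) was -8.22 for FN1 (SE 0.59, limma adjusted p = 3.19e-07) and -7.87 for POSTN (SE 0.37, limma adjusted p = 7.62e-09). Their order depends on the pseudocount, since with 0.1 in place of 1 it was -12.4 for POSTN and -9.86 for DCN, while FN1 stayed between -8.90 and -7.86 over all alternatives run. VCAN had the smallest difference at -1.12 (SE 0.38, limma adjusted p = 0.0345), and its call was lost in 11 of the alternatives run. Of the 8 genes tested in both lines, 5 were called higher in U87 and lower in U118 (FN1, POSTN, FBN1, LUM and FAP), a pattern held by 0.666% of the 13217 genes tested in both. This count includes POSTN, which passed the filter in each line through its high group. The 10 genes were also chosen with earlier results of these data known, so the count describes the set and is no support for it.

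**Figure D3:**
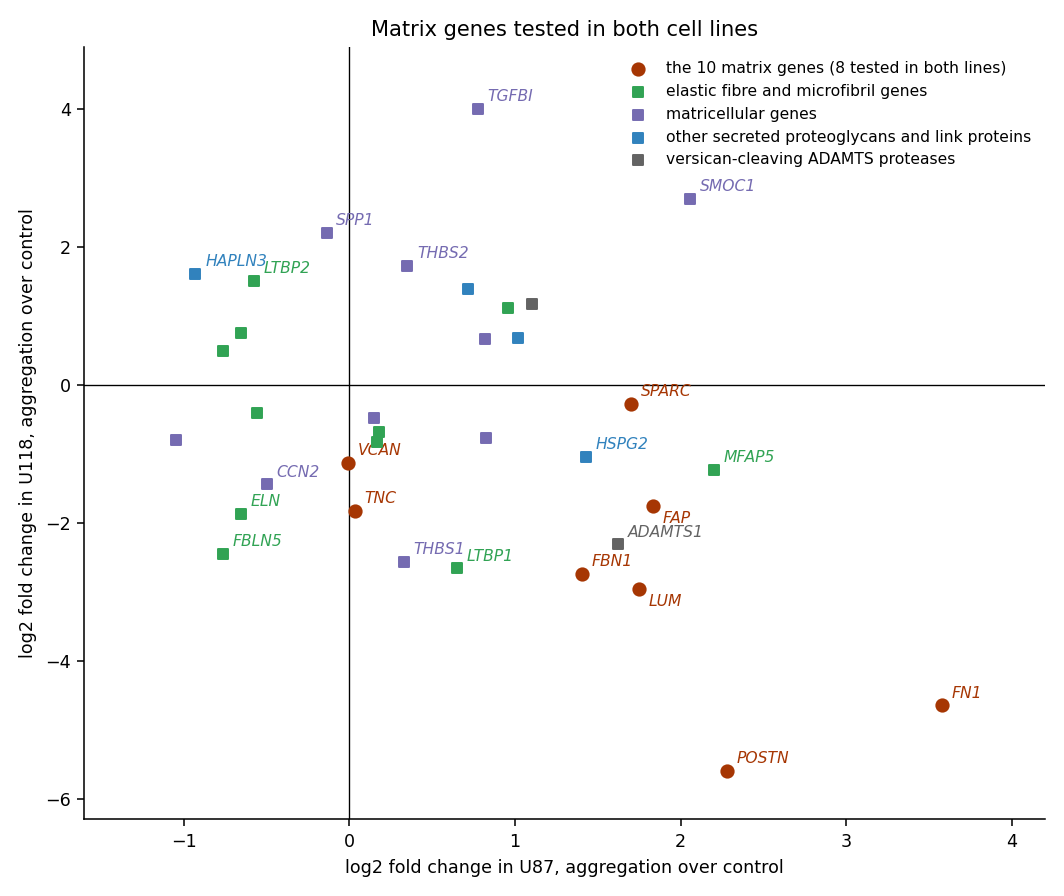
Log2 fold change (aggregation over control) in U87 on the x axis against that in U118 on the y axis, for the matrix genes tested in both lines. Red circles are 8 of the 10 genes and squares are other matrix genes by list. The circles of FN1, POSTN, FBN1, LUM and FAP lie in the lower right part, where U87 rose and U118 fell, and TGFBI and SMOC1 lie in the upper right.

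Set beside each other on the TPM scale, the 10 genes had a different order in each group. TNC led in U87 control (64.6% of the summed TPM of the 10), followed by SPARC and FN1, none of which overlapped its neighbour. FN1 led in U87 aggregation (41.6%), ahead of SPARC and TNC, whose values overlapped each other. In U118 control FN1 held 72.8% of the sum, then came TNC, SPARC, FBN1 and POSTN, each separate from the gene above it. In U118 aggregation SPARC led with 41.0%, and TNC and FN1 followed with overlapping values. BGN, DCN and POSTN took the lowest places in U87 control and in U118 aggregation cells.

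The summed TPM of the 10 genes was 775 to 879 in U87 control and 1997 to 2211 in U87 aggregation libraries. For U118 the sum was 3979 to 5085 in control libraries and 992, 469 and 499 in aggregation libraries. FN1 carried much of this, and without it the sum was 697 to 811 and 1212 to 1303 TPM in U87, and 1206 to 1278 in control and 659, 391 and 415 in aggregation libraries of U118. The groups of each line stayed apart without FN1.

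**Figure D4:**
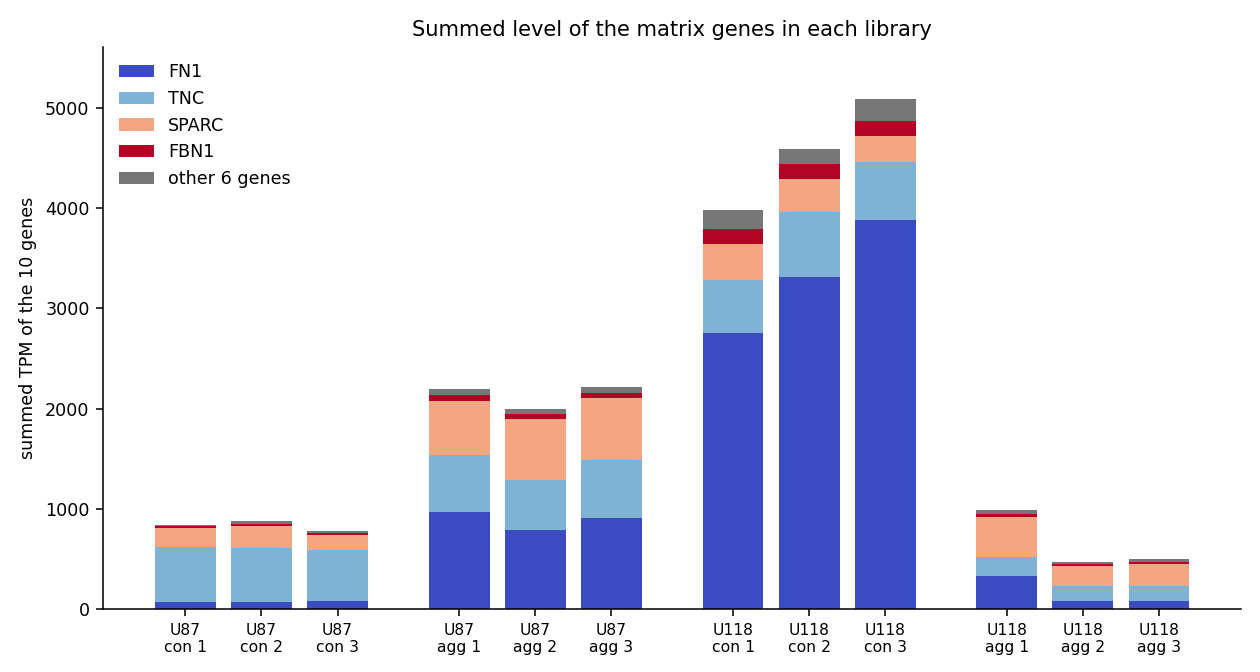
Summed TPM of the 10 matrix genes in each of the 12 libraries, stacked by FN1, TNC, SPARC, FBN1 and the other 6 genes, with con for control and agg for aggregation. U118 control bars reach 3979 to 5085 TPM, mostly FN1, and the other groups stay at or under 2211 TPM. U118 aggregation replicate 1 is the highest of its group at 992 TPM.

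The mitochondrial share set the groups apart in U87 and overlapped between them in U118, and some of the cell markers moved with the groups. The part of the mitochondrial share and of the markers in the changes was not tested beyond the values given here. With TPM recomputed without mitochondrially encoded genes, the 7 genes called higher in U87 stayed called, as did those called lower in U118 other than VCAN. Fibroblast and mesenchymal markers outside the 10 genes (10 listed) summed to 512 to 525 TPM in U87 control and 812 to 880 in U87 aggregation, and to 1500 to 2188 in U118 control and 464 to 866 in U118 aggregation libraries. In U87, 2 of 7 tested were called higher (3.03% of all genes) and 0 lower, and in U118 1 of 9 was called higher (8.64% of all genes) and 6 lower (26.6%), of which PDGFRA passed the filter only through the controls. THY1, a defining fibroblast marker, was at most 0.127 TPM in U87 and was at 213 to 459 TPM in U118 control and 51.2 to 104 in U118 aggregation libraries. PDGFRA was at most 0.311 TPM in U87, at 71.8 to 88.3 in U118 control and at 0.0716 to 0.105 in U118 aggregation libraries. Most of the other fibroblast markers were present in U87, with 7 of the 10 at 1 TPM or more in all its libraries, among them ACTA2 (means of 250.1 TPM in control and 334 in aggregation), COL1A2 (186 and 359) and COL1A1 (40.1 and 96.2). PDGFRB (1.27) and COL1A1 (1.24) were those called higher in U87 on the log2 scale. The marker called higher in U118 was ACTA2 (4.38), at 4.19 to 6.11 TPM in control and 115 to 131 in aggregation libraries. COL3A1 was at most 0.103 TPM in U87 control, at 0.902 to 1.53 in U87 aggregation and at most 0.262 in U118 libraries. The fibroblast name of the gene set was thus matched in U87 by most of the marker list and not by THY1, PDGFRA or, in control cells, COL3A1. The genes are called here by their matrix roles.

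Glial markers were mostly absent from both lines. Of 8 listed, the sum was 9.33 to 12.3 TPM in U87 control, 14.04 to 16.1 in U87 aggregation, 6.71 to 8.50 in U118 control and 11.6 to 25.99 in U118 aggregation libraries. NES carried most of it, at 5.76 to 7.57 TPM in U118 control and 10.4 to 24.1 in U118 aggregation libraries, and was called in neither line. NES reached 1 TPM in every library and OLIG2 in every U87 library, while GFAP stayed below 0.7 TPM and SOX10 and AQP4 were listed at 0 throughout. SOX2 was listed at 0 in U87, and in U118 it was at 0.328 to 0.550 TPM in control and 0.0253 to 0.0590 in aggregation libraries. OLIG2 went the other way in U118, from at most 0.0524 TPM in control to 0.570 to 1.05 in aggregation libraries. PTPRZ1 was at most 0.0337 TPM in any library. SOX2, OLIG2 and PTPRZ1 were not tested in U118. Endothelial markers (5 listed) summed to 1.84 to 4.66 TPM over all libraries, with CDH5 at most 0.0740. In U118, TEK was called higher (1.58), with at most 0.0573 TPM in control and 3.93 in aggregation libraries, and KDR lower (-1.07), with at most 1.51 TPM in control and 0.0820 in aggregation libraries. Both passed the filter only through their high group. Leukocyte markers (5 listed) summed to 171 to 380 TPM, nearly all from CD68, a lysosomal protein that other cells also make, while PTPRC was at most 0.0689 TPM and AIF1 was listed at 0. Epithelial markers (5 listed) summed to 7.85 to 9.43 TPM in U87 control and 10.7 to 12.4 in U87 aggregation, and moved with the state in U118, from 1.599 to 2.67 TPM in control to 11.1 to 19.9 in aggregation libraries. There 2 of the 5 were tested, and KRT8 was called higher (2.43, limma adjusted p = 0.000195), beside 8.64% of all genes. KRT8 was at 0.853 to 1.75 TPM in U118 control and at 8.35 to 16.3 in U118 aggregation libraries. KRT18 was not called and passed the filter only through the aggregation libraries. EPCAM, KRT19 and CDH1 stayed under 1 TPM in all U118 libraries and were not tested. The part of these markers in the U118 results was not tested.

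Other matrix genes came from 4 lists. Of the 60 listed, 28 were tested in U87, with 6 called higher (3.03% of all genes) and 1 lower (7.79%) and a median log2 fold change of 0.26. In U118, 33 were tested, with 10 higher (8.64% of all genes) and 10 lower and a median of -0.40, and the share called lower was near the 26.6% of all genes. The interaction called 8 of 35 higher (12% of all genes) and 11 lower (18.5%) in U118 than in U87. Of the 16 elastic fibre and microfibril genes, 1 of 12 tested rose in U87 (3.03% of all genes). It was the microfibril gene MFAP5 (2.20), which passed the filter only through the aggregation libraries. In U118 3 of 14 rose (FBLN1 2.05, LTBP2 1.52 and LTBP3 1.11), beside 8.64% of all genes. There 5 fell, beside 26.6% of all genes, led by EMILIN1 at -5.45, the latent TGF-beta binder LTBP1 at -2.66 and FBLN5 at -2.45 on the log2 scale. MFAP5 was also among these 5 (-1.23, limma adjusted p = 0.00207). Of the 5, 4 passed the filter only through the control libraries, EMILIN1, FBLN5 and MFAP5 included. Among 16 matricellular genes, 10 were tested in U87, with 1 called higher (3.03% of all genes) and 1 lower (7.79%). In U118 11 were tested, with 4 called higher (8.64% of all genes) and 2 lower (26.6%). Of those called, SMOC1 rose in both lines (2.06 and 2.70), CCN1 fell in U87 (-1.05), and in U118 TGFBI (4.005) and SPP1 (2.21) rose while THBS1 (-2.56) and CCN2 (-1.44) fell.

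Among 22 other proteoglycan, leucine-rich and link protein genes, the filter kept 4 for U87 and 5 for U118. In U87 2 were called higher (3.03% of all genes) and 0 lower (7.79%), and in U118 2 higher (8.64%) and 1 lower (26.6%). HSPG2, the basement membrane proteoglycan perlecan, rose in U87 (1.43) and fell in U118 (-1.04), and SPOCK1 rose in U87 (1.02). HAPLN3 (1.62) and SRGN (1.39) rose in U118. The SRGN call leaned on aggregation replicate 1, at 132 TPM against 34.9 and 36.2 in the rest of its group. Without replicate 1 its log2 fold change was 0.77, short of the fold threshold. Of 6 ADAMTS proteases that cleave versican, only 2 were tested in U87 and 3 in U118. In U87 2 were called higher (3.03% of all genes), and in U118 1 higher (8.64%) and 2 lower (26.6%). ADAMTS1 rose in U87 (1.62) and fell in U118 (-2.31), ADAMTS5 rose in both (1.10 and 1.17) and ADAMTS15 fell in U118 (-3.64). ADAMTS5 in U87 and ADAMTS15 in U118 passed the filter only through their high group. The calls of CCN1 and SPOCK1 in U87 and of CCN2, HSPG2, HAPLN3, LTBP2, LTBP3 and SRGN in U118 were lost in 1 or more of the alternatives run.

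By Euclidean distance between gene-centred log2(TPM + 1) values over the 12 libraries, among 45 matrix genes, some of the 10 had another of the 10 as nearest gene. FN1 was nearest to POSTN (2.81), POSTN to DCN (2.76), LUM to FBN1 (1.30) and BGN to SPARC (1.67). Of these pairs, FBN1 and ADAMTS1 had the most similar profiles, at a distance of 0.687. SPARC (1.45) and FAP (1.51) were each nearest to MFAP5, TNC to FBLN5 (1.51), DCN to ADAMTS15 (2.30) and VCAN to CCN2 (1.61). The points share libraries and their scaling, so the distances are a description without a test.

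LUM and DCN lie side by side on the minus strand of chromosome 12, within a block (90963679 to 91183123) whose 4 protein-coding genes are EPYC, KERA, LUM and DCN. EPYC and KERA, which code for related leucine-rich proteins of cartilage and cornea, were listed at 0 in all 12 libraries. FAP lies on chromosome 2 (161992241 to 162318703) between DPP4 and GCG on the one side and IFIH1 on the other. DPP4, the closest relative of FAP among the proline-cleaving proteases, was at 15.7, 26.4 and 17.9 TPM in U87 control and at 39.8, 40.4 and 38.7 in U87 aggregation libraries. Its groups were apart, and its log2 fold change of 0.98 (limma adjusted p = 0.00606) was just under the fold threshold, which it passed in 5 of the alternatives run. In U118 DPP4 was at -0.63 (limma adjusted p = 0.105), and the difference between the lines was -1.61 (limma adjusted p = 0.0038). IFIH1 was at 0.06 in U87 and -0.75 in U118 on the log2 scale and was called in neither, and GCG was under 1 TPM in every library.

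Antisense partners overlap exons of 4 of the genes by 1.34% (TNC, with DEC1) to 9.11% (FAP, with AC007750.1) of the exon bases. None of these partners exceeded 1.48 TPM. Whether reads were counted by strand is not given in the sources used here, so reads in the shared exons cannot be told apart.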

How the data were processed

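mRNA-seq libraries of control and aggregation cells of U87 and U118 (3 per group) were analysed. The authors deposited TPM values per gene, 1 table for each cell line, and these TPM values were used as deposited. The submitters' processing notes list FastQC 0.11.2, Trimmomatic 0.36, HISAT2 2.0, bedtools 2.26.0 and GRCh38; the quantification tool, annotation and strand setting are not given in the sources used here. Libraries were made from total RNA with an mRNA library kit. Of 58174 identifiers, 57392 had a symbol and 57836 were in GENCODE release 29, whose GRCh38 positions are given. No read counts are known, so precision rests on the 3 libraries of a group.

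With a pseudocount of 1, log2 TPM was modelled in limma 3.58.1 (lmFit and trended eBayes; R 4.3.3) for each line alone and, for the interaction, for the 12 libraries together, where 3 or more libraries had to reach 1 TPM. Python 3.11.15, pandas 2.3.3 and matplotlib 3.10.9 served for tables and figures. Promoters are from RefSeq (GRCh38.p14). All 10 genes are named. Of each other matrix list and line, up to 3 called genes with the largest rise and up to 3 with the largest fall and no overlap of groups are named, with all neighbouring genes and the nearest matrix gene. The genes and lists were chosen with earlier results of these data known. The marker genes named within the marker lists were chosen after their values were seen. Alternatives were a pseudocount of 0.1, no filter, a mean of at least 10 TPM, no fold threshold, median-ratio scaling, TPM without mitochondrial genes, eBayes without trend, a replicate block and leaving out each library.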

Additional observations from a re-analysis of the deposited data

Results flagged for a closer look

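All 10 genes were picked out because the change from control to aggregation cells differed between the cell lines by the interaction test (U118 minus U87, log2 scale, limma over 3 libraries in each of the 4 groups). The difference was -8.22 for FN1, -7.87 for POSTN, -5.85 for DCN, -4.70 for LUM, -4.15 for FBN1, -3.59 for FAP, -2.37 for BGN, -1.98 for SPARC, -1.85 for TNC and -1.12 for VCAN. In FN1, POSTN, FBN1, LUM and FAP it came from a call in each line, higher in U87 and lower in U118. For TNC and VCAN it came with a call in U118 alone, and for SPARC with a call in U87 alone. BGN was tested within U87 alone and DCN within U118 alone, since each was below the filter in the other line, and in the interaction BGN passed the filter only through the U87 aggregation libraries. POSTN passed it there only through the U87 aggregation and U118 control libraries, so the differences of BGN and POSTN were bound to be negative. Of all genes tested, 30.5% differed between the lines.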

How the results depend on the processing

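Across the alternatives run, the calls of the 7 genes higher in U87, of the 8 lower in U118 other than VCAN, and of the 10 differences other than VCAN were kept wherever the gene was tested. With a mean of at least 10 TPM, BGN, LUM and POSTN fell below the filter in U87, which left 4 genes called higher there. With no filter on low values 8 were called higher in U87, DCN being added at its low level. VCAN reversed in U87, from -0.01 to 0.24 with median-ratio scaling and 0.12 without mitochondrial genes, and it ranged from -0.27 (without U87 control replicate 1) to 0.27 (without U87 control replicate 2) when single libraries were left out. SPARC in U118 reversed to 0.30 with median-ratio scaling. SPP1 in U87 reversed to 0.14 with that scaling and ranged from -0.38 to 0.10 with single libraries left out, and IFIH1 in U87 ranged from -0.066 to 0.23. None of these was called. The VCAN difference was -0.83 with median-ratio scaling and -0.86 to -1.40 when single libraries were left out. With a pseudocount of 0.1 the log2 fold changes of the genes near 0 grew, to 3.90 for POSTN and 3.82 for BGN in U87 and to differences of -12.4 for POSTN, -9.86 for DCN and -5.54 for BGN.

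Counts over all genes moved more. With no fold threshold, 1306 genes were called higher and 4107 lower in U87. Under the filter of a mean of 10 TPM or more, the counts were 175 and 630 in U87, 536 and 2152 in U118, and 2063 for the difference. Median-ratio scaling brought the all-gene medians to -0.00179 and -0.0349 and gave 685 higher and 526 lower in U87 and 2330 and 2004 in U118, so that 56.6% of U87 calls (27.99% as deposited), 53.8% of U118 calls (24.5%) and 52.4% of the differences (39.5%) were higher. Leaving out single libraries gave 404 to 482 higher and 941 to 1416 lower in U87, 1228 to 1421 and 3388 to 5643 in U118, and 4609 to 6157 differences. The cause of these moves was not tested.

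Replicate numbers are shared across groups. Deviations of same-numbered libraries correlated at 0.0113, -0.0671 and -0.0399 in U87 and at 0.139, 0.0512 and 0.0953 in U118. Those of other-numbered libraries correlated at -0.0579 to 0.0772 in U87 and at -0.108 to 0.0397 in U118. In U118 each same-numbered value was thus above every other-numbered one. The main fits took the libraries as unpaired, and whether the numbers mark pairs was not tested. With the replicate block, 414 genes were called higher and 1040 lower in U87, 1363 and 4218 in U118, and 5064 for the difference, and no call of the 10 genes changed.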
